A study of Mus musculus with 35 samples.

Results

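The genes of GABA and glycine transmission were followed in lumbar motoneurons of SOD1G93A mice, a model of amyotrophic lateral sclerosis. The set was defined as 27 named genes and was read from every probe set of the array that names exactly 1 gene. A probe set for 26 of the 27 genes was found, 65 probe sets in all of 45101 on the array. Of these, 44 probe sets of 25 genes passed the filter on low and flat values, beside 31352 probe sets of the whole array. Both probe sets of Gabra6 stayed under the filter, and Gabbr2 was not analysed here.

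Motoneurons were cut from lumbar sections by laser microdissection, 300 per mouse, and the RNA of each mouse was amplified and hybridised to 1 Affymetrix array of the mouse genome. At week 11 the groups were 6 wild type (WT) mice of strain C57BL/6J and 8 SOD1G93A mice, and neither had been treated. At week 15 they were 7 WT mice, 7 SOD1G93A mice that had received vehicle and 7 SOD1G93A mice that had received G-CSF, both from week 11 by a pump under the skin. All mice were female littermates of 1 line, and the SOD1G93A mice were hemizygous for a high copy number transgene of human SOD1 (strain B6.Cg-Tg(SOD1-G93A)1Gur/J), which is driven by its own promoter in every cell rather than in motoneurons alone. The mice of week 11 and those of week 15 were different cohorts, so that age and cohort cannot be told apart, and among SOD1G93A mice the pump goes with week 15. The study describes no pump for WT mice, so that at week 15 pump and genotype cannot be told apart either.

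GABA and glycine are the fast inhibitory transmitters of the spinal cord, and many inhibitory endings on motoneurons release both. Inhibitory interneurons make GABA with the glutamate decarboxylases Gad1 and Gad2, take up glycine through the neuronal transporter Slc6a5 (GlyT2) and load both into vesicles through Slc32a1 (VGAT). On the motoneuron, pentameric GABA-A and glycine receptors open a chloride pore, gephyrin (Gphn) holds them at the synapse, and the exporter Slc12a5 (KCC2) keeps chloride low enough for the current to inhibit. GABA-B receptors act more slowly, through G proteins. Presynaptic genes are therefore not thought of as motoneuron genes, whereas the receptors, the scaffold and the exporter are.

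Values are log2 intensities and differences are log2 differences, so that 1 unit is a factor of 2. The median of all probe sets lay between 3.19 and 3.47 on the 35 arrays, and a value near it cannot be told from background. A transcript was called changed at an unadjusted p under 0.05, an adjusted p under 0.1 (10% false discovery rate over all 31352 probe sets) and a difference of at least 1.5-fold, with limma. For each group the lowest, median and highest mouse are given in that order.

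The arrays carried motoneuron transcripts. Isl1, Prph, Mnx1, Slc5a7 and Rbfox3 were over the array median on all 35 arrays, whereas Chat, the enzyme that makes acetylcholine, was over it on 12. The mean of 11 motoneuron markers was 7.53 ± 0.14 in WT mice and 6.85 ± 0.28 in vehicle-treated SOD1G93A mice of week 15. In G-CSF-treated mice it was 6.94 ± 0.30. The list includes Chodl, which the study already reported as strongly lower in SOD1G93A mice. Glial transcripts were present too, with 7 of 8 astrocyte and 5 of 8 oligodendrocyte markers over the array median on all arrays. Agreement within a group was lower in SOD1G93A mice of week 15: an array's mean correlation with the other arrays of its group lay between 0.885 and 0.94 in vehicle- and G-CSF-treated mice, and between 0.949 and 0.973 in the other groups apart from 1 WT array of week 11 at 0.90. Counts are also given without that array and vehicle replicates 3 and 5, 3 arrays set apart in an earlier analysis of these data. Vehicle replicate 6 and G-CSF replicate 3, at 0.898 and 0.896, had similar values and were kept.

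Of the 65 probe sets, 28 (18 genes) were over the array median on all 35 arrays. Slc32a1, Slc6a5 and Gad2 were among these genes, and Gad1 and Gabre were over the median on 30 arrays. The brightest probe sets of Gabra4, Gabra6, Gabrd, Gabrg3, Glra2 and Glra3 were over it on 9 arrays or fewer, and little is read from them. A motoneuron dissected by laser brings with it the endings on its surface and fragments of neighbouring cells, and in such bulk samples fewer cells of a type and less RNA per cell cannot be told apart.

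At week 15, 3 receptor genes were lower in vehicle-treated SOD1G93A mice than in WT mice. Transcripts of Gabra2 and Gabra5, which code for GABA-A receptor α subunits, and of Gabbr1, a subunit that binds GABA in the GABA-B receptor, fell. Of 44 probe sets 5 were called, all lower (4 of 20 for GABA-A subunits and 1 of 3 for Gabbr1). Over the whole array 5.91% of probe sets were called in this comparison, 4.2% lower. The median difference of the 44 probe sets was -0.29, against 0.02 for all probe sets tested, and 31 of the 44 lay lower. With 1 probe set per gene, the brightest, the median was -0.16 and 15 of 25 genes lay lower. No glycine receptor, scaffold or chloride transporter gene was called. The 11 motoneuron markers had a median of -0.34 in the same comparison with 3 called lower, and their part in the receptor values was not tested.

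**Figure D1:**
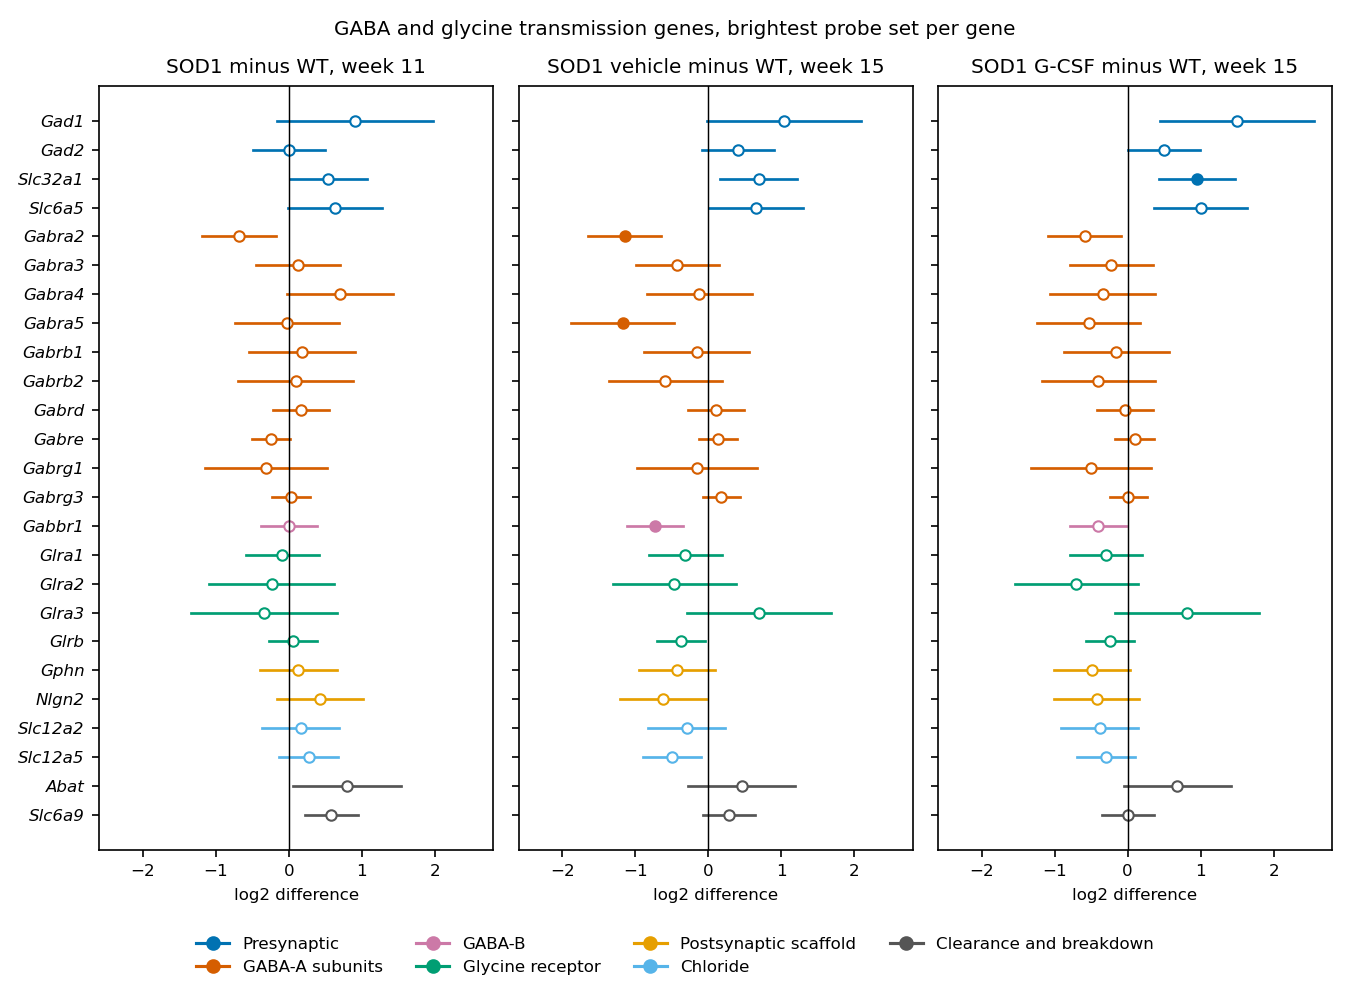
Log2 difference from WT (x axis) of the brightest probe set of each of 25 genes (y axis), coloured by role, in SOD1G93A mice of week 11, vehicle-treated and G-CSF-treated SOD1G93A mice of week 15. Points are limma estimates, lines 95% confidence intervals of a single probe set, and filled points were called; Gabra2, Gabra5 and Gabbr1 are filled at -1.15, -1.17 and -0.73 in the vehicle-treated mice, where the 4 presynaptic genes lie right of 0 with open points.

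A promoter window of each of the 3 called genes is shown, since these hold a start from which transcription begins. Those of Gabra2 and Gabbr1 lie at the start of the gene, whereas that of Gabra5 lies at a transcript start well inside the gene, which spans chr7:57407669-57591016 on the minus strand. Each runs 5′ to 3′ over 300 bases, most of them before the start and a short stretch after it (RefSeq, GRCm38.p6), and capitals mark the GC box (GGGCGG), the CCAAT box (CCAAT) and the TATA box (TATAAA), each searched on both strands.
Gabra2 (chr5:71095800-71096099, minus strand): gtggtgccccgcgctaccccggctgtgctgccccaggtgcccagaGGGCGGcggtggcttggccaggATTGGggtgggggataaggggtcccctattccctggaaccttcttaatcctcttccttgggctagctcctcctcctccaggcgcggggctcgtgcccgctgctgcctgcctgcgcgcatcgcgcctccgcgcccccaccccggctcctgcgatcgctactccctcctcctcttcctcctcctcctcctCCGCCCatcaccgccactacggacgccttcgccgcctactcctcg
Gabra5 (chr7:57510010-57510309, minus strand): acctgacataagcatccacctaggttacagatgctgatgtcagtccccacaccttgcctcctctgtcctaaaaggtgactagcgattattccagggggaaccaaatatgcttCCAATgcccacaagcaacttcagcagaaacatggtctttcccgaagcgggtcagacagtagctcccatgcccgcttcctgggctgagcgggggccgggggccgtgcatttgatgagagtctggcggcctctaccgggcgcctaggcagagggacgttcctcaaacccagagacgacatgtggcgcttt
Gabbr1 (chr17:37045716-37046015, plus strand): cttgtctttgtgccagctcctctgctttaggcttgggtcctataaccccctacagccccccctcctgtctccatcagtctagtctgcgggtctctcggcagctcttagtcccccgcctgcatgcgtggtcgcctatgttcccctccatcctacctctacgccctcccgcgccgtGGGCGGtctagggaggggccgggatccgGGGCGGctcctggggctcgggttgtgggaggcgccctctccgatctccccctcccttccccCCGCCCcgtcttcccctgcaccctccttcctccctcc

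Gabra2 and Gabbr1 held 2 and 3 GC boxes and Gabra5 none, while Gabra2 and Gabra5 held 1 CCAAT box each and Gabbr1 none. No TATA box was found in these windows. Of 32851 mouse promoter windows of this length, 35.7% held a GC box, 37.4% a CCAAT box and 13.6% a TATA box. Among 31 windows of 23 members, 51.6%, 35.5% and 16.1% held them. The 3 promoters thus had no motif of these in common.

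Gabra2 codes for the α2 subunit, a common partner of β and γ subunits at inhibitory synapses. Its brightest probe set (1455444_at) gave 9.04, 9.31 and 9.72 in WT mice of week 15, 7.24, 8.07 and 9.09 in vehicle-treated and 8.24, 8.57 and 9.85 in G-CSF-treated mice. The difference between vehicle-treated and WT mice was -1.15 (SE 0.25, adjusted p = 0.00741), 2.21-fold lower. Of the 7 vehicle-treated mice 6 lay under every WT mouse, and the last overlapped only the lowest WT mouse. At week 11 the same probe set gave 8.80, 9.38 and 9.80 in WT and 8.46, 8.68 and 8.93 in SOD1G93A mice, a difference of -0.69 (SE 0.25, adjusted p = 0.238) that did not pass the threshold over all probe sets. All 8 SOD1G93A mice were under the WT mean and 6 of them under every WT mouse.

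Further probe sets of Gabra2 gave the same direction at week 15. With 1443865_at, WT mice had 6.22, 7.18 and 7.85 and vehicle-treated mice 4.36, 5.26 and 6.54, a difference of -1.75 (SE 0.40, adjusted p = 0.0108) or 3.37-fold. With 1421738_at, WT mice had 5.50, 5.79 and 6.09 and vehicle-treated mice 2.93, 4.72 and 5.26, a difference of -1.41 (SE 0.37, adjusted p = 0.0261). The groups did not overlap for 1421738_at, and for 1443865_at 5 of 7 vehicle-treated mice were under every WT mouse. G-CSF-treated mice had 4.70, 5.81 and 7.63 with 1443865_at and 3.78, 4.79 and 6.88 with 1421738_at, a spread that reached from the vehicle-treated mice to the WT mice. The remaining probe sets of Gabra2, 1449807_x_at and 1420299_at, stayed between 1.81 and 3.48 in all mice, close to background, and the first differed by -0.06 (SE 0.13, adjusted p = 0.838).

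These other probe sets were not called at week 11. With 1443865_at the mice had 5.22, 7.25 and 7.89 in the WT group and 5.93, 6.76 and 7.30 in the SOD1G93A group, and with 1421738_at 4.19, 6.07 and 6.93 and 5.82, 6.36 and 6.73. The groups overlapped for both, and the SOD1G93A mean was lower than the WT mean for 1443865_at (6.74 against 7.03) and higher for 1421738_at. The difference between SOD1G93A and WT mice changed from week 11 to week 15 by -1.81 (SE 0.53, adjusted p = 0.0842) for 1421738_at, the only called change of its kind among the 44 probe sets (2.93% of all probe sets were called, 2.15% lower). For 1455444_at it changed by -0.46 (SE 0.35, adjusted p = 0.491) and for 1443865_at by -1.47 (SE 0.57, adjusted p = 0.172). The call of 1421738_at was lost when any 1 of 12 mice was left out: SOD1G93A replicates 2, 3, 4 and 7 or WT replicate 6 of week 11, vehicle replicates 2 and 6, or WT replicates 2, 3, 4, 6 and 7 of week 15. The change then lay between -1.85 and -1.47.

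**Figure D2:**
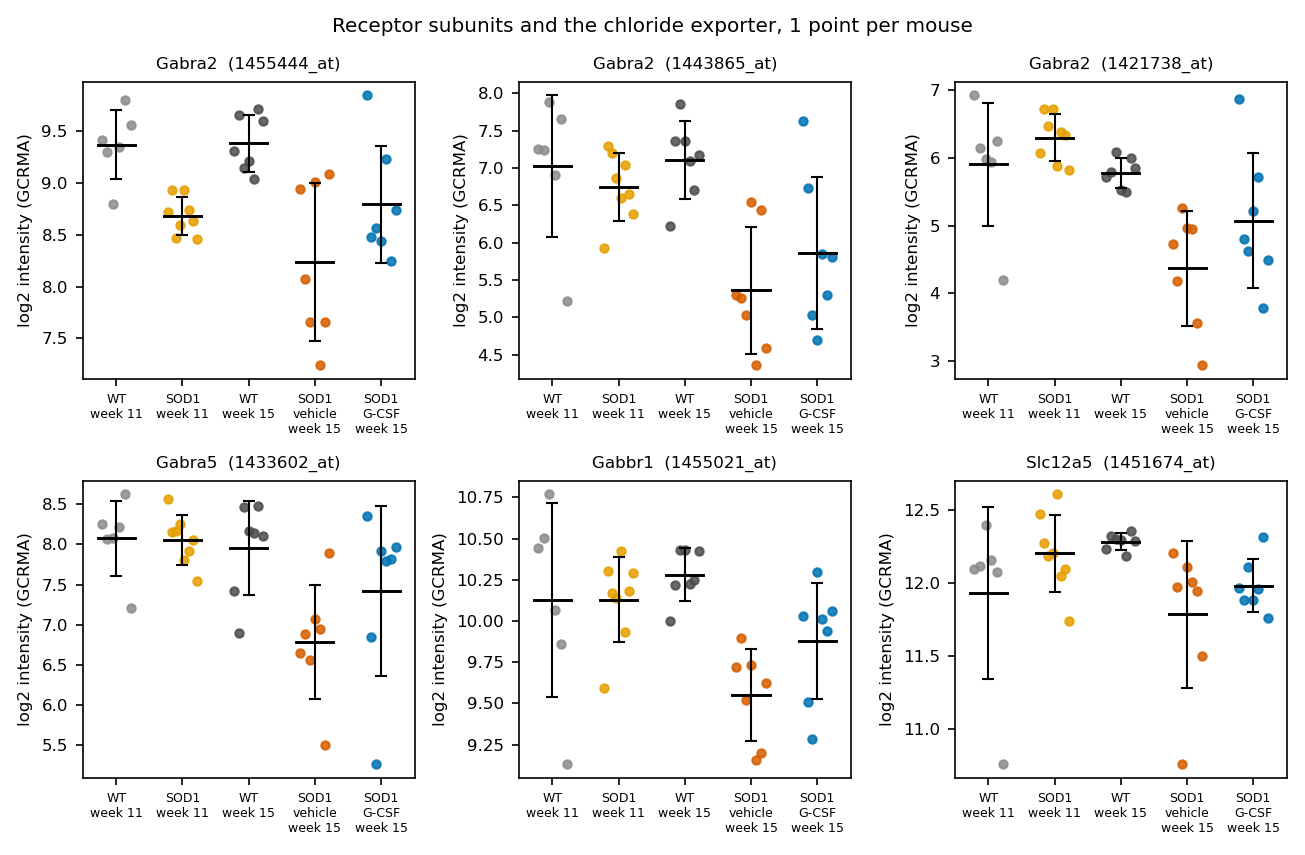
Log2 intensity (y axis) of 6 probe sets in the 5 groups (x axis), 1 point per mouse, with bars at the mean and whiskers of 1 SD. The vehicle-treated group has the lowest means, 8.24, 5.36 and 4.37 for Gabra2, 6.79 for Gabra5 and 9.55 for Gabbr1. The lowest Gabbr1 point is 1 WT array of week 11, which also lies far below its group for Slc12a5.

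Gabra5 codes for α5, a subunit best known from receptors outside the synapse. It was read by 1 probe set, with 6.90, 8.15 and 8.49 in WT, 5.50, 6.88 and 7.89 in vehicle-treated and 5.26, 7.81 and 8.36 in G-CSF-treated mice of week 15. Vehicle-treated mice were lower than WT mice by 2.25-fold, -1.17 (SE 0.35, adjusted p = 0.0506). All 7 lay under the WT mean and 4 under every WT mouse, and the groups overlapped. The call was lost without vehicle replicate 6, at -0.96, and without WT replicate 6 of week 15, at -1.08. At week 11 the levels were 7.22, 8.15 and 8.63 in WT and 7.54, 8.11 and 8.56 in SOD1G93A mice, with a difference of -0.02.

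For Gabbr1, vehicle-treated and WT mice of week 15 did not overlap in the called probe set, its brightest (1455021_at). A called probe set is more likely to separate groups, and the share that did so over the array was not counted. This probe set gave 9.997, 10.25 and 10.43 in WT, 9.16, 9.62 and 9.90 in vehicle-treated and 9.28, 10.01 and 10.30 in G-CSF-treated mice. Vehicle-treated mice were lower by 1.66-fold, -0.73 (SE 0.19, adjusted p = 0.0223). At week 11 WT mice had 9.13, 10.25 and 10.77 and SOD1G93A mice 9.59, 10.18 and 10.42. The genotypes were centred on the same level there, with a difference of 0.00 and a 95% interval of -0.38 to 0.39. A second bright probe set, 1437188_at, did not follow: it had 8.48, 8.81 and 8.93 in WT and 8.02, 8.63 and 9.55 in vehicle-treated mice of week 15, a difference of -0.03 (SE 0.19, adjusted p = 0.957). The 2 probe sets of Gabbr1 thus disagreed, and whether they read different transcript forms was not tested.

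The other GABA-A subunits gave no call in this comparison. Gabra2, Gabra4, Gabrb1 and Gabrg1 lie next to each other on chromosome 5, so the neighbours of Gabra2 were looked at first. Gabrb1 (β1) had means of 8.60 ± 0.58 in WT and 8.43 ± 1.04 in vehicle-treated mice (SD, n = 7 each) and differed by -0.16 (SE 0.35, adjusted p = 0.841). Gabrg1 (γ1) differed by -0.15 (SE 0.41, adjusted p = 0.872) with its brighter probe set and by -0.94 (SE 0.35, adjusted p = 0.123) with a dim one. The neighbours thus showed no called fall of the kind seen in Gabra2, but their intervals were wide, -0.88 to 0.56 for Gabrb1 and -0.98 to 0.67 for Gabrg1. Gabra4 was dim, at 2.82 ± 0.54 in WT mice.

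Gabrb2 (β2) was lower in vehicle-treated mice with all 4 of its filtered probe sets, by -0.59, -0.52, -0.41 and -1.17, none called. Gabra3 (α3) differed by -0.42 (SE 0.28, adjusted p = 0.416). Gabrd, Gabre and Gabrg3, which code for δ, ε and γ3, were between 2.59 and 3.54 on average at week 15 and differed by 0.11, 0.13 and 0.18. In all, 16 of 20 GABA-A probe sets were lower, with a median of -0.42, in which Gabra2 and Gabrb2 count several times. With the brightest probe set of each gene 7 of 10 were lower, with a median of -0.16.

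Glycine receptor genes were not called between the genotypes. Glra1, the adult α1 subunit, gave 9.71, 10.04 and 10.48 in WT, 8.95, 9.84 and 10.41 in vehicle-treated and 9.09, 9.65 and 10.45 in G-CSF-treated mice of week 15, and the vehicle-treated mice differed from WT by -0.31 (SE 0.24, adjusted p = 0.501). Glrb, the β subunit that binds gephyrin, had means of 9.71 ± 0.22 and 9.34 ± 0.36 (SD, n = 7) and differed by -0.38 (SE 0.16, adjusted p = 0.183). A second bright Glrb probe set, 1459850_x_at, varied too little to pass the filter, and its means were 10.54 ± 0.10 and 10.71 ± 0.13, in the opposite order. Glra2 and Glra3 were at background in most mice.

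The 8 filtered probe sets of the synaptic scaffold and the chloride transporters were all lower in vehicle-treated mice, none of them called; a bright Nlgn2 probe set that varied too little to pass the filter, 1460013_at, lay in the opposite order (5.35 against 5.15 in WT mice). Gphn differed by -0.43, -0.42 and -0.57 with its 3 filtered probe sets, and Nlgn2, the adhesion protein of inhibitory synapses, by -0.62 (SE 0.29, adjusted p = 0.226). Slc12a5 had 12.18, 12.30 and 12.36 in WT and 10.76, 11.97 and 12.21 in vehicle-treated mice, a difference of -0.50 (SE 0.20, adjusted p = 0.146). The WT mice of week 15 were tightly grouped for Slc12a5, with an SD of 0.06 against 0.50 in vehicle-treated mice. The importer Slc12a2 (NKCC1), which raises chloride in the cell, differed by -0.30 (SE 0.26, adjusted p = 0.548) with its brightest probe set. Its dim probe sets had means of 4.35 in WT and 3.35 in vehicle-treated mice with 1448780_at, and of 5.61 and 5.46 with 1417623_at.

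The presynaptic genes lay in the other direction from most other members. All 6 filtered probe sets of Gad1, Gad2, Slc32a1 and Slc6a5 were higher in vehicle-treated than in WT mice, with a median of 0.53, but none was called (1.72% of all probe sets were called higher). Of the 38 other probe sets 7 were higher. Those of the clearance and breakdown genes Slc6a9 and Abat, 2 of 2, were among them, with a median of 0.37 and none called. Among the 6, Slc6a5 with 1425992_at and Gad2 with 1421978_at lay near background, over the array median on 1 and 5 of 35 arrays. With the brightest probe set per gene all 4 presynaptic genes were higher, with a median of 0.67. In that count 3 of 10 GABA-A subunit and 1 of 4 glycine receptor genes were higher too. No GABA-B, scaffold or chloride transporter gene was higher. Receptor and presynaptic genes are set side by side by these counts only, since probe sets of 1 gene are not independent.

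**Figure D3:**
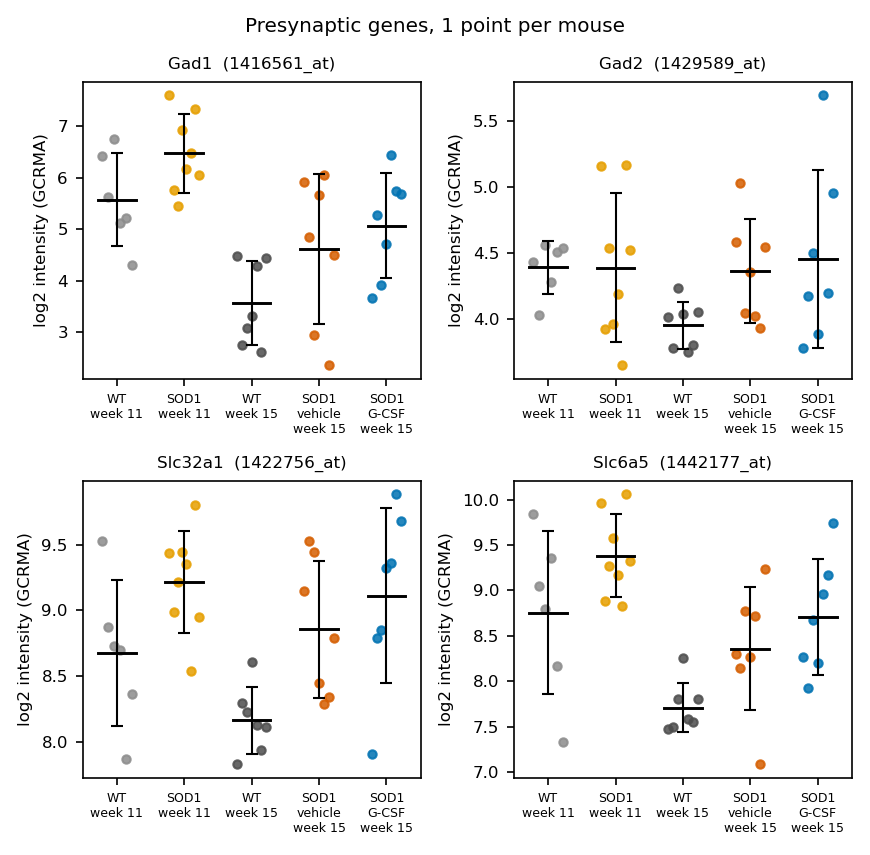
Log2 intensity (y axis) of the brightest probe set of Gad1, Gad2, Slc32a1 and Slc6a5 in the 5 groups (x axis), 1 point per mouse, with bars at the mean and whiskers of 1 SD. For each gene WT mice of week 15 have the lowest mean (3.57, 3.95, 8.16 and 7.71). The means of the SOD1G93A groups of week 15 lie above it, with ranges that overlap that of the WT mice.

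Slc32a1 had 7.83, 8.13 and 8.61 in WT, 8.29, 8.79 and 9.53 in vehicle-treated and 7.90, 9.32 and 9.88 in G-CSF-treated mice of week 15. Vehicle-treated mice differed from WT mice by 0.69 (SE 0.26, adjusted p = 0.125), with all 7 over the WT mean and 4 over every WT mouse. It was called after another quantile normalization over the arrays, at 0.83, and without vehicle replicate 4, vehicle replicate 5 or G-CSF replicate 1, at 0.69 to 0.79. For Slc6a5 the values were 7.47, 7.58 and 8.25, 7.08, 8.30 and 9.24 and 7.92, 8.68 and 9.75, and the difference was 0.65 (SE 0.32, adjusted p = 0.249). Here 5 of 7 vehicle-treated mice were over every WT mouse and 1 was under every one.

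Gad1 had 2.62, 3.32 and 4.49 in WT, 2.36, 4.84 and 6.04 in vehicle-treated and 3.66, 5.27 and 6.45 in G-CSF-treated mice, and vehicle-treated mice differed from WT by 1.04 (SE 0.52, adjusted p = 0.264). Their range was the widest of the 4 genes, from below every WT mouse to above all of them. Gad2 was dimmer, with 3.75, 4.02 and 4.23, 3.93, 4.36 and 5.03 and 3.78, 4.195 and 5.70, and differed by 0.41 (SE 0.24, adjusted p = 0.358). The intervals of the differences were -0.02 to 2.10 for Gad1, -0.08 to 0.90 for Gad2, 0.17 to 1.22 for Slc32a1 and 0.01 to 1.29 for Slc6a5.

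Markers of inhibitory interneurons outside the set were examined beside these values. Of 12 listed genes 10 had a probe set and 7 passed the filter, with a median of 0.24 between vehicle-treated and WT mice. Of these, 2 rose in vehicle-treated mice: Npy by 2.05 (SE 0.35, adjusted p = 0.000949) and Penk by 1.66 (SE 0.48, adjusted p = 0.0456), both neuropeptides. Stressed neurons can express Npy too, per the study. The mean of the 10 genes with a probe set ranged from 3.04 to 3.28 in WT and from 3.45 to 3.93 in vehicle-treated mice. In G-CSF-treated mice it ranged from 3.02 to 3.54. This mean includes Npy and Penk, and also the genes that did not pass the filter. Of the transcription factors that mark the class, Lhx5 was over the array median on none of the 35 arrays and Lhx1 on 16, at up to 5.76. Slc17a6, the glutamate transporter of excitatory interneurons, was bright, with a mean of 9.50 over all arrays. Of 5 tested excitatory interneuron markers 1 was called lower and 0 higher in vehicle-treated mice, with a list median of 0.17. Of 9 tested microglial markers 5 were called higher, with a list median of 0.95. The astrocyte list as a whole had a median of 0.05, and of its 8 genes only Gfap was called, higher by 3.70 (SE 0.57, adjusted p = 0.0003). The 7 tested oligodendrocyte markers had a median of -0.61, none called with its brightest probe set. The part of any of these cells in the presynaptic values was not tested.

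At week 11 no member was called between SOD1G93A and WT mice, of 44 probe sets tested with limma, where 1.32% of all probe sets were called. Of them 6 had an unadjusted p under 0.05, and Tukey's comparison after the study's analysis of variance called 0. The median difference was 0.07. Of the 6 presynaptic probe sets, the dim ones of Slc6a5 and Gad2 among them, 5 were higher in SOD1G93A mice, with a median of 0.39. Gad1 had 4.29, 5.42 and 6.74 in WT and 5.45, 6.32 and 7.61 in SOD1G93A mice and differed by 0.90 (SE 0.52, adjusted p = 0.567). Slc6a5 had 7.33, 8.92 and 9.84 and 8.82, 9.30 and 10.06 and differed by 0.63 (SE 0.32, adjusted p = 0.475), with 8 of 8 SOD1G93A mice over the WT mean.

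Slc32a1 had 7.87, 8.71 and 9.53 and 8.54, 9.29 and 9.80 at week 11, a difference of 0.54 (SE 0.26, adjusted p = 0.442). Gad2 had 4.03, 4.47 and 4.56 and 3.65, 4.36 and 5.17, with the same mean in both genotypes. The lowest adjusted p of the members belonged to Slc6a9 (GlyT1), which clears glycine from the synapse and is carried mainly by glia, with means of 5.74 ± 0.30 in 6 WT and 6.32 ± 0.34 in 8 SOD1G93A mice (SD) and a difference of 0.58 (SE 0.18, adjusted p = 0.132). It was called, at 0.68, without the 3 arrays named above. Abat, which breaks GABA down, differed by 0.80 (SE 0.37, adjusted p = 0.405), and 1 WT mouse at 4.54 lay far under the others.

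The change of the presynaptic differences between the weeks was not called for any of the 4 genes, with 0.14 (SE 0.74, adjusted p = 0.939) for Gad1, 0.41 (SE 0.34, adjusted p = 0.538) for Gad2, 0.15 (SE 0.37, adjusted p = 0.855) for Slc32a1 and 0.02 (SE 0.45, adjusted p = 0.987) for Slc6a5. For genes of the receptors, the scaffold and the exporter it was -1.15 (SE 0.49, adjusted p = 0.214) for Gabra5, -0.73 (SE 0.27, adjusted p = 0.148) for Gabbr1, -1.05 (SE 0.41, adjusted p = 0.176) for Nlgn2 and -0.77 (SE 0.28, adjusted p = 0.148) for Slc12a5. By role, the median change was -0.40 for 20 GABA-A probe sets, 6 of them above 0. For 5 glycine receptor probe sets it was -0.23, 1 of them above 0. All scaffold, chloride transporter and Gabbr1 probe sets lay below 0, with medians of -0.64, -0.70 and -0.61. The Slc12a5 value rests in part on WT replicate 6 of week 11, at 10.76 with the others from 12.08. Of the 44 probe sets 32 had a change below 0, with a median of -0.34 against 0.02 for all probe sets. These estimates share the WT and SOD1G93A groups with the comparisons above.

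G-CSF treatment left no called member against vehicle. None of 44 probe sets passed limma's thresholds, 2 had an unadjusted p under 0.05 and Tukey's comparison called 0, and 0.0383% of all probe sets were called (0.0128% higher and 0.0255% lower). Gabra2 was 0.56 higher (95% interval 0.05 to 1.06) with 1455444_at, 0.51 with 1443865_at and 0.70 with 1421738_at. The interval of 1455444_at lay above 0, but its adjusted p was 0.544. Gabra5 differed by 0.64 (SE 0.35, adjusted p = 0.648) and Gabbr1 by 0.33 (SE 0.19, adjusted p = 0.671). For Gabbr1, 5 of 7 G-CSF-treated mice were over every vehicle-treated mouse.

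Against WT mice of week 15, 2 probe sets were called in G-CSF-treated mice, where 1.13% of all probe sets were called (0.348% higher and 0.778% lower). Slc32a1 was higher by 0.95 (SE 0.26, adjusted p = 0.0828), 1.93-fold, with 6 of 7 mice over every WT mouse. Gabrg1 was lower with its dim probe set 1427227_at, which gave 3.31, 4.32 and 5.68 in WT, 2.37, 3.19 and 4.95 in vehicle-treated and 2.68, 3.14 and 3.57 in G-CSF-treated mice, by -1.25 (SE 0.35, adjusted p = 0.0934). Its brighter probe set differed by -0.51 (SE 0.41, adjusted p = 0.639). Both calls were at the edge of the threshold. That of Slc32a1 was lost without any 1 of 10 mice (G-CSF replicates 4 to 7 and WT replicates 1, 2, 3, 5, 6 and 7 of week 15), at 0.82 to 0.97, and that of Gabrg1 without any 1 of 20, 11 of them from the groups compared (G-CSF replicates 2, 3, 5, 6 and 7 and WT replicates 1, 2, 3, 4, 5 and 7 of week 15) and 9 of week 11 (SOD1G93A replicates 2, 3, 4, 6 and 7 and WT replicates 1, 2, 4 and 5), at -1.31 to -1.04. The comparison uses the same WT mice as that of vehicle-treated mice.

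The other presynaptic genes were higher too without a call, Gad1 by 1.49 (SE 0.52, adjusted p = 0.193), Slc6a5 by 1.00 (SE 0.32, adjusted p = 0.14) and Gad2 by 0.50 (SE 0.24, adjusted p = 0.379). All 7 G-CSF-treated mice were over the WT mean for Gad1 and Slc6a5. The receptors that were lower under vehicle differed from WT by -0.59 (SE 0.25, adjusted p = 0.299) for Gabra2, -0.53 (SE 0.35, adjusted p = 0.545) for Gabra5 and -0.41 (SE 0.19, adjusted p = 0.36) for Gabbr1. A call in vehicle-treated and not in G-CSF-treated mice is no sign that the treatments differ, and the direct comparison is the one given above. For Slc12a2 the dim probe set 1417623_at was lower than under vehicle by -1.50 (SE 0.56, adjusted p = 0.463).

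Between WT mice of week 11 and week 15, 5 probe sets were called (5.56% of all, 3.29% higher and 2.26% lower). Gad1 had 4.29, 5.42 and 6.74 at week 11 and 2.62, 3.32 and 4.49 at week 15 and was lower by -2.0 (SE 0.54, adjusted p = 0.0274). Slc6a5 was lower by -1.05 (SE 0.33, adjusted p = 0.0642), and lost the call without any 1 of 7 mice (WT replicates 1 to 4 of week 11 or 1, 2 and 5 of week 15), at -1.04 to -0.83. Slc32a1 and Gad2 lay in the same direction, at -0.51 and -0.44, without a call. WT mice of week 15 were thus the lowest group for all 4 presynaptic genes. The comparisons at week 15 are set against that level, which for Gad1 was near background.

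Glra1 was higher in WT mice of week 15, with 7.78, 8.72 and 8.86 at week 11 and 9.71, 10.04 and 10.48 at week 15, a difference of 1.48 (SE 0.25, adjusted p = 0.00066) or 2.79-fold. Every mouse of week 15 lay above every mouse of week 11. SOD1G93A mice of week 11 had 7.53, 8.54 and 9.05, beside the higher levels given above for the treated groups of week 15, a difference that was not tested. Slc12a2 was higher with its dim probe sets, from 2.71, 3.13 and 4.81 to 3.72, 5.53 and 7.17 with 1417623_at, 2.23 (SE 0.59, adjusted p = 0.0228), and from 2.41, 2.72 and 3.71 to 3.57, 4.19 and 5.10 with 1448780_at, 1.45 (SE 0.43, adjusted p = 0.0462). The call of 1448780_at was lost without WT replicate 4 of week 11, at 1.36. The brightest probe set stayed at 9.16 ± 0.25 and 9.22 ± 0.27 (SD, n = 6 and 7), a difference of 0.07 (SE 0.27, adjusted p = 0.944).

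**Figure D4:**
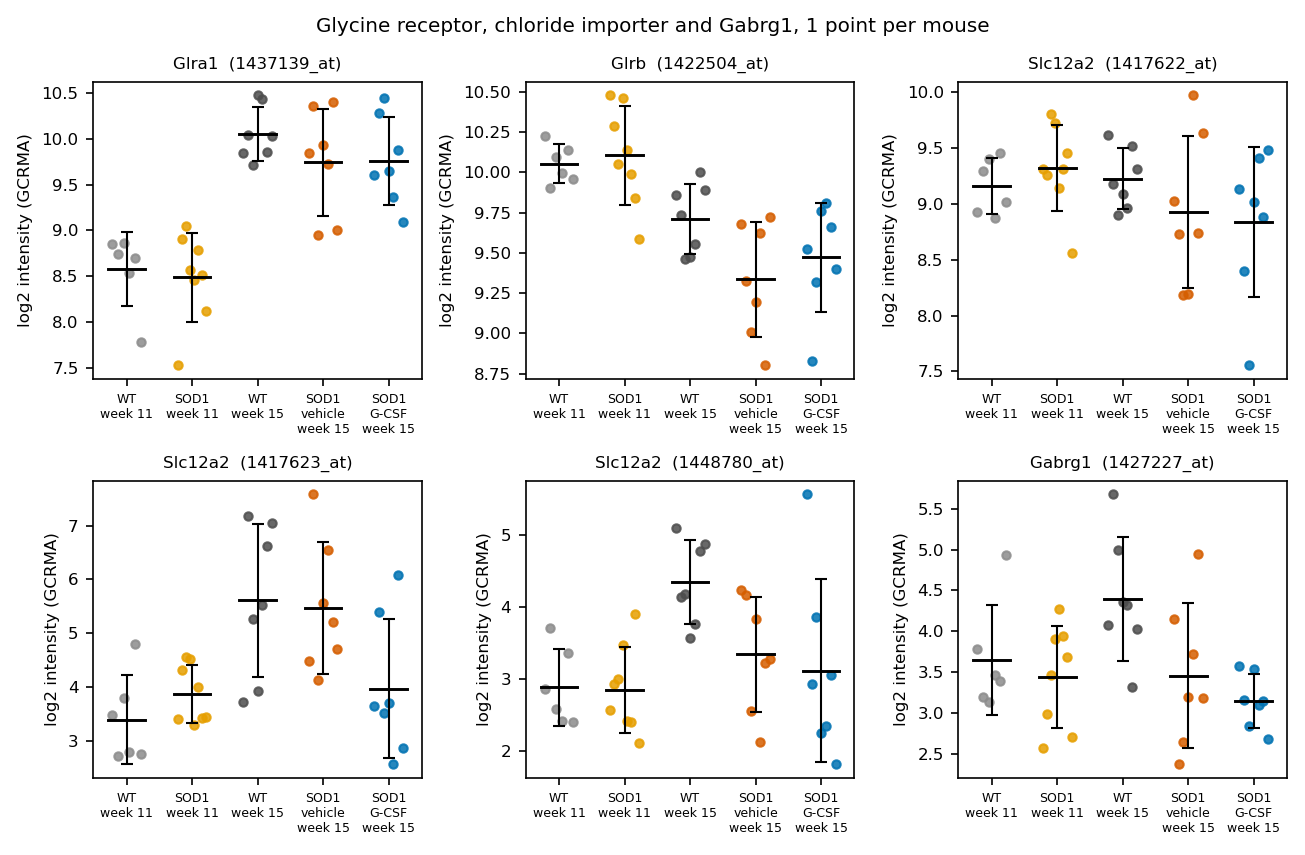
Log2 intensity (y axis) of 6 probe sets of Glra1, Glrb, Slc12a2 and Gabrg1 in the 5 groups (x axis), 1 point per mouse, with bars at the mean and whiskers of 1 SD. Glra1 and the dim Slc12a2 probe sets are higher in WT mice of week 15 (means 10.06, 5.61 and 4.35) than of week 11 (8.58, 3.39 and 2.89), while the brightest Slc12a2 probe set stays near 9.2.

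The control probe set for 18S ribosomal RNA moved with the cohort, from 9.62 ± 0.63 in WT mice of week 11 to 12.13 ± 0.28 at week 15 (SD, n = 6 and 7). With it as a covariate none of the 5 calls between the weeks remained, and Glra1 differed by 0.16 and Slc12a2 (1417623_at) by 0.61. Gad1 kept a difference of -1.97. Week, cohort and this control cannot be told apart. The control also differed between the genotypes, in opposite order at the 2 weeks. SOD1G93A mice had 10.40 ± 0.69 at week 11, above WT mice. At week 15 vehicle-treated mice had 11.58 ± 0.64 and G-CSF-treated mice 11.67 ± 0.24, below WT mice (SD, n = 8, 7 and 7). With the covariate, calls over all probe sets went from 919 to 6 for the change between the weeks. For vehicle-treated against WT mice they went from 1854 to 1361.

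Genes of the pathway outside the set were counted from a list of 41, of which 31 passed the filter. In vehicle-treated mice 1 fell and 0 rose, with a median of -0.08. The gene was Kctd8, an auxiliary subunit of GABA-B receptors, which had means of 7.07 in WT and 5.19 in vehicle-treated mice and fell by 1.88 on the log2 scale (SE 0.32, adjusted p = 0.000782). In G-CSF-treated mice it fell by 1.86 (adjusted p = 0.00326), and Lhfpl4, which helps to place GABA-A receptors at synapses, by 0.62 (adjusted p = 0.0289). The change of the Kctd8 difference between the weeks was called as well, at -1.65 (SE 0.45, adjusted p = 0.0685). None was called between G-CSF and vehicle.

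At week 11, Nrxn2, a presynaptic adhesion protein, was higher in SOD1G93A mice by 0.70 (adjusted p = 0.0932), and Stk39, a kinase that acts on chloride transporters, by 1.56 with 1 of its probe sets (adjusted p = 0.0132). Between WT mice of week 11 and 15, 1 of the 31 genes was called higher with its brightest probe set and none lower, where 3.29% and 2.26% of all probe sets were called. It was Clcn3, a chloride-proton exchanger of endosomes, which rose by 1.63 (SE 0.31, adjusted p = 0.00192). With any probe set 4 genes were called higher and none lower.

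Of the presynaptic genes, Slc32a1 and Slc6a5 varied together from mouse to mouse. After the group mean was taken from each value, Slc32a1 and Slc6a5 correlated over 35 mice with Pearson's r = 0.615 and Spearman's rho = 0.611 (within-group permutation test, two-sided, p = 0.00097 and 0.00062, adjusted over the 6 pairs 0.0058 and 0.0037). Without the 2 mice farthest from the median of Slc32a1, r was 0.569. Within the groups r ranged from 0.24 in vehicle-treated mice to 0.848 in SOD1G93A mice of week 11. Of the 6 pairs, 5 passed by Pearson's r at an adjusted p under 0.05, but only Slc32a1 with Slc6a5 by Spearman's rho as well.

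**Figure D5:**
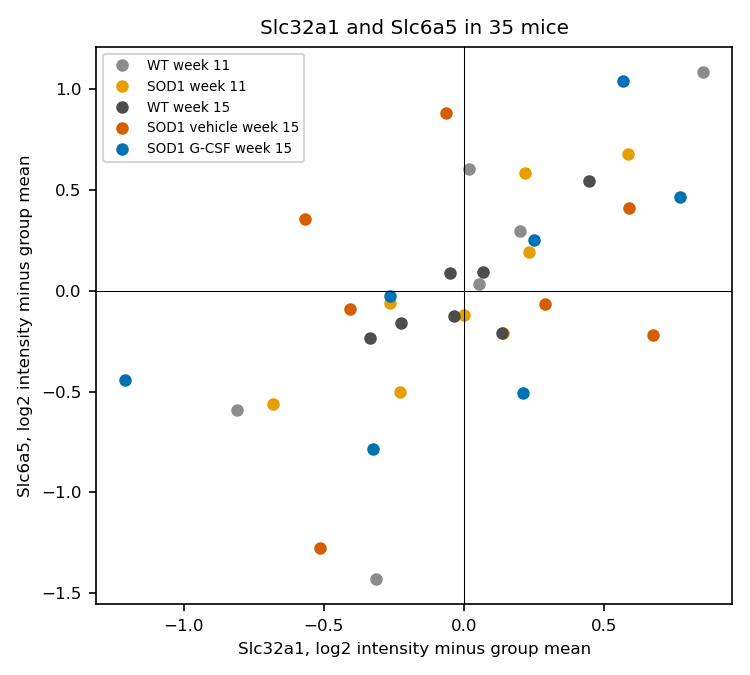
Log2 intensity minus the group mean of Slc6a5 (y axis) against Slc32a1 (x axis), 1 point per mouse, coloured by group. The points of the 35 mice rise together (r = 0.615), and those of vehicle-treated mice are the most scattered (r = 0.24).

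The weaker pairs were Gad1 with Slc6a5 (r = 0.479, rho = 0.389, adjusted permutation p = 0.026 and 0.072), Gad1 with Gad2 (0.429, 0.345, 0.026 and 0.077), Gad2 with Slc32a1 (0.421, 0.346, 0.038 and 0.077), Gad2 with Slc6a5 (0.373, 0.379, 0.038 and 0.072) and Gad1 with Slc32a1 (0.314, 0.266, 0.1 and 0.17). Without the 2 farthest mice r lay between 0.355 and 0.444 for these 5 pairs. The genes were read on the same arrays, and the part of shared amplification or of tissue around the cells was not tested.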

How the data were processed

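Log2 intensities were used as deposited. Per the labels and the study's methods, the authors made them with the GCRMA algorithm of Expression Console, whose version is not given in the sources used here, after T7 amplification in consecutive rounds, so that background correction sets values near the floor. Probe sets were assigned to genes with GEO's platform annotation, updated through RefSeq gene IDs, and kept where they named 1 gene. The filter followed the study's methods: over the 20th centile of intensity (2.40) on at least 4 arrays, and a standard deviation at or over the 30th centile (0.24). All 31352 probe sets past it, from all 5 groups, were fitted with limma 3.58.1 (R 4.3.3), with Benjamini-Hochberg adjustment over all of them. The code was tested on simulated data with known differences. Arrays hold no read depth, and the number of mice limits the precision. Each array is 1 mouse, and the labels number mice within groups. The brightest filtered probe set by mean over all arrays stood for a gene, and all 27 members are named. Pearson's and Spearman's correlations used 100000 permutations within groups. Tables were made with Python 3.11.15, pandas 2.3.3, numpy 2.4.6, scipy 1.17.1 and matplotlib 3.10.9.

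The members, the lists of pathway and marker genes, the tests and the alternatives were chosen with earlier results of these data known. The alternatives were a stricter adjusted p, a smaller fold, the methods' ANOVA with Tukey's comparison, no filter, another quantile normalization, a fit on the groups of the week alone, the replicate number as a block, array weights, an intensity trend, a floor, the 18S control as a covariate, and arrays left out. Gabbr2 was not analysed here.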

Additional observations from a re-analysis of the deposited data

Results flagged for a closer look

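Single mice far from the rest of their group were found by Dixon's criterion in 12 of 130 groups of values, over 10 genes, where chance flags about 5%. WT replicate 6 of week 11 accounted for 5 of the 12, always as the lowest mouse: 7.39 for Gabrb2 (others from 8.44), 7.78 for Glra1 (others from 8.53), 6.81 for Gphn (others from 8.75), 10.76 for Slc12a5 (others from 12.08) and 4.54 for Abat (others from 7.41). The same array had the lowest mean correlation with its group at week 11. Further low values were 5.91 for Nlgn2 in vehicle replicate 3.

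High values were 4.01 for Gabrd in WT replicate 1 of week 11, 2.98 for Gabrd in WT replicate 1 of week 15, 5.21 for Glra2 in WT replicate 3 of week 11, 2.49 for Glra2 in G-CSF replicate 7, 3.08 for Gabra6 in G-CSF replicate 4 and 8.25 for Slc6a5 in WT replicate 4 of week 15. Those of Gabrd, Glra2 and Gabra6 concern probe sets near background.

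The difference between SOD1G93A and WT mice changed between the weeks for Gabra2 with 1421738_at, by -1.81 (limma, adjusted p = 0.0842), from 0.39 at week 11 to -1.41 in vehicle-treated mice at week 15. The other Gabra2 probe sets past background did not pass this test.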

How the results depend on the processing

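Counts of called member probe sets were recomputed under 12 alternatives (11 for the comparisons across weeks, which a fit on 1 week cannot give), and with each of the 35 mice left out. No direction reversed. At week 11 the count of 0 became 1 on the groups of that week alone, 3 with array weights and 1 without the 3 arrays set apart (0 to 1 with single mice left out). For vehicle-treated against WT mice the count of 5 became 1 with Tukey's comparison and ranged from 5 to 7 over single mice. It was 0 in all settings for G-CSF against vehicle. For G-CSF-treated against WT mice the count of 2 became 0 at an adjusted p under 0.05, with Tukey's comparison, on week 15 alone, with the replicate block and with the 18S covariate, 1 without a filter, 4 without the 3 arrays and 6 with array weights, and ranged from 0 (without G-CSF replicate 5) to 6 (without G-CSF replicate 1). Between WT mice of both weeks the count of 5 became 1 with Tukey's comparison, 10 with array weights and 0 with the 18S covariate, and ranged from 3 (without WT replicate 4 of week 11) to 6. The count of 1 for the change between the weeks became 0 at an adjusted p under 0.05, with another quantile normalization, with the 18S covariate and without the 3 arrays, and ranged from 0 to 2. With the mean of a gene's filtered probe sets 2 of the 6 presynaptic correlations passed instead of 5. The causes were not tested.

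Gabra2 with 1455444_at kept its call in vehicle-treated mice under all 12 alternatives and all 35 omissions. Gabra2 with 1443865_at and 1421738_at and Gabbr1 lost it with Tukey's comparison alone. Gabra5 lost it at an adjusted p under 0.05, with Tukey's comparison and on week 15 alone. Mice with the same number in different groups did not vary together (mean r = -0.0075 over 66 pairs, and 4 of 35 mice correlated best with their own number), so the replicate block pairs mice that share only a number. It moved no other count of member calls by over 1.5 times. The fold of a dim probe set is limited by signal over background: of the 44 probe sets, 11 had a mean under the lowest array median.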

Other observations

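Of the 65 probe sets, 3 were over the array median on all 35 arrays but varied too little to pass the filter, so that they entered no test. Nlgn2 with 1460013_at had means of 5.15 ± 0.16 in WT and 5.35 ± 0.21 in vehicle-treated mice of week 15 (SD, n = 7 each), the opposite order to the tested Nlgn2 probe set. Slc6a9 with 1431812_a_at had 4.13 ± 0.13 and 4.26 ± 0.22, and 4.39 ± 0.26 in G-CSF-treated mice. Glrb with 1459850_x_at had 10.54 ± 0.10, 10.71 ± 0.13 and 10.65 ± 0.15 in WT, vehicle-treated and G-CSF-treated mice. A probe set that names 1 gene can thus give another order of the groups than a second one for the same gene.

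Npy, which rose in vehicle-treated mice, was lower in G-CSF-treated than in vehicle-treated mice by -2.0 on the log2 scale (SE 0.35, limma, adjusted p = 0.0247; 4.08 against 6.07), the only called gene of the 7 tested inhibitory interneuron markers in that comparison, and chosen for mention after its value was seen. The study had already reported from the same arrays that the rise of Npy was prevented by G-CSF. The presynaptic members lay higher in G-CSF-treated than in vehicle-treated mice with 5 of 6 probe sets, none called. The dim probe sets of Slc6a5 and Gad2 are among these 6.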
